A study of Mus musculus with 24 samples.

Results

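Glutamate and GABA receptor subunits were followed across 24 RNA libraries of mouse striatum. Members were protein-coding genes whose symbols name an ionotropic or metabotropic glutamate receptor (Gria, Grik, Grin, Grid, Grm) or a GABA-A or GABA-B receptor subunit (Gabra, Gabrb, Gabrg, Gabrr, Gabrd, Gabre, Gabrp, Gabrq, Gabbr), with at least 240 reads over all libraries. Of 47 genes whose symbols fit, 42 had enough reads, out of 54532 genes in the table. There were 25 glutamate receptor members and 17 GABA receptor members. The glutamate members were 4 AMPA, 5 kainate, 7 NMDA and 2 delta subunits and 7 of the 8 metabotropic receptors. The GABA members were 14 of the 16 GABA-A subunits outside the rho group, 1 of 3 rho subunits and both GABA-B subunits.

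Each library came from the striatum of a single hemisphere of a C57BL/6 animal. The genotypes were WT, Tyrobp-KO (TyrobpKO below), Q175 heterozygote (Q175) and Q175 heterozygote with Tyrobp-KO (Q175_TyrobpKO), with 6 libraries each, 3 from males and 3 from females. The Q175 allele expands the CAG repeat of the mouse Htt gene in place and models Huntington's disease. Tyrobp encodes a signalling adaptor of microglial surface receptors. The design asked how the Q175 allele altered striatal expression with and without Tyrobp. The labels give neither the age of the animals nor whether any were littermates, and the tissue was not sorted into cell types. Q175 was compared with WT and Q175_TyrobpKO with TyrobpKO, which share no library. The other comparisons were TyrobpKO against WT and Q175_TyrobpKO against Q175. Animal numbers carried 1 prefix in both Tyrobp-deleted genotypes. A second prefix marked the Q175 animals and, of the WT animals, replicate 3. The labels do not say what a prefix stands for. Prefix and genotype cannot be told apart in TyrobpKO against WT and in Q175_TyrobpKO against Q175, nor, save for that 1 WT animal, in Q175 against WT.

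Glutamate is the excitatory transmitter that cortical and thalamic axons release onto striatal neurons. AMPA and kainate receptors carry fast current, NMDA receptors admit calcium and need both glutamate and a co-agonist, and metabotropic receptors act through G proteins. The projection neurons of the striatum themselves use GABA, which opens the chloride channel of GABA-A receptors and, through GABA-B receptors, acts on G proteins, potassium channels and calcium channels. GABA-A receptors are pentamers, usually of alpha and beta subunits with a gamma subunit at synapses or a delta subunit outside them.

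Library totals ranged from 25.5 to 34.6 M (M, megacounts). Tyrobp was at 6.56 to 9.89 CPM (library-scaled counts) in WT and 5.69 to 11.8 CPM in Q175, against 0.214 to 0.448 CPM in TyrobpKO and 0.218 to 0.323 CPM in Q175_TyrobpKO, as labelled. Defining genes of striatal projection neurons were present in every library, with Drd1 at 133 to 354 CPM, Drd2 at 115 to 304 CPM and Ppp1r1b at 674 to 1739 CPM. Markers of neighbouring tissue varied between libraries. Slc17a7, a glutamate transporter of cortical excitatory neurons, ran from 5.88 to 605 CPM. Ttr, a choroid plexus gene, reached 3793 CPM in Q175 replicate 3, and Cbln3, a gene of cerebellar granule cells, reached 14.1 CPM in Q175 replicate 2. The totals of called members and partner genes in Q175 against WT are also given without these 2 libraries, an alternative chosen after seeing the data.

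Levels of different genes were compared per length, as RPKM (CPM divided by the length of the gene model in kilobases), in WT. Gabbr1, the ligand-binding subunit of the GABA-B receptor, was the most abundant member at 102 ± 4.51 RPKM (SD, n = 6). Its obligate partner Gabbr2 was at 20.7 ± 6.27 RPKM. Among AMPA subunits Gria1 stood at 81.9 ± 7.56 RPKM, Gria2 at 61.1 ± 7.29, Gria3 at 25.4 ± 1.18 and Gria4 at 16.0 ± 1.68. Gria2 encodes the subunit that makes AMPA channels impermeable to calcium, and it held 33.0% ± 1.5 (SD, n = 6) of the summed AMPA RPKM. By CPM, with no division by length, the order was reversed, with WT means of 949 CPM for Gria2 and 495 CPM for Gria1. Their gene models have 15548 and 6043 bases, so the order and the share depend on the lengths used. The obligate NMDA subunit Grin1 was at 39.2 ± 1.77 RPKM, followed by Grin2b at 30.9 ± 2.13, Grin2c at 11.8 ± 0.784 and Grin2a at 8.72 ± 1.49. By CPM Grin2b was above Grin1, with WT means of 767 and 380 CPM and gene models of 24842 and 9700 bases. Grin3a, Grin2d and Grin3b lay between 0.380 and 1.48 RPKM. Kainate RNA was led by the high-affinity subunit Grik5 at 42.0 ± 4.32 RPKM, which held 53.0% ± 2.6 of the kainate sum, then Grik3 at 19.3 ± 1.60 and Grik2 at 14.4 ± 2.40. The metabotropic receptor Grm5, which couples to Gq, was at 43.5 ± 7.30 RPKM and Grm3, which couples to Gi, at 32.2 ± 3.12.

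Within the GABA-A family Gabrd, the extrasynaptic delta subunit, was at 44.9 ± 3.62 RPKM and Gabra4 at 38.4 ± 6.16, a difference smaller than the sum of their SDs. The lowest GABA receptor members were Gabrr2 at 0.618 ± 0.265 RPKM, Gabrq at 0.139 ± 0.0535 and Gabra6 at 0.109 ± 0.0639. On the side of the read minimum that made a gene a member, Gabra6 had 347 reads over 24 libraries, Gabrq 621, Grin3b 663 and Gabrr2 1069. On the other side, Gabre had 158 reads, Gabrr1 76, Gabrr3 34, Gabrp 5 and Grm6 2. All 42 members passed the filter on low counts and were tested. The plot of WT levels per length shows these families side by side.

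**Figure D1:**
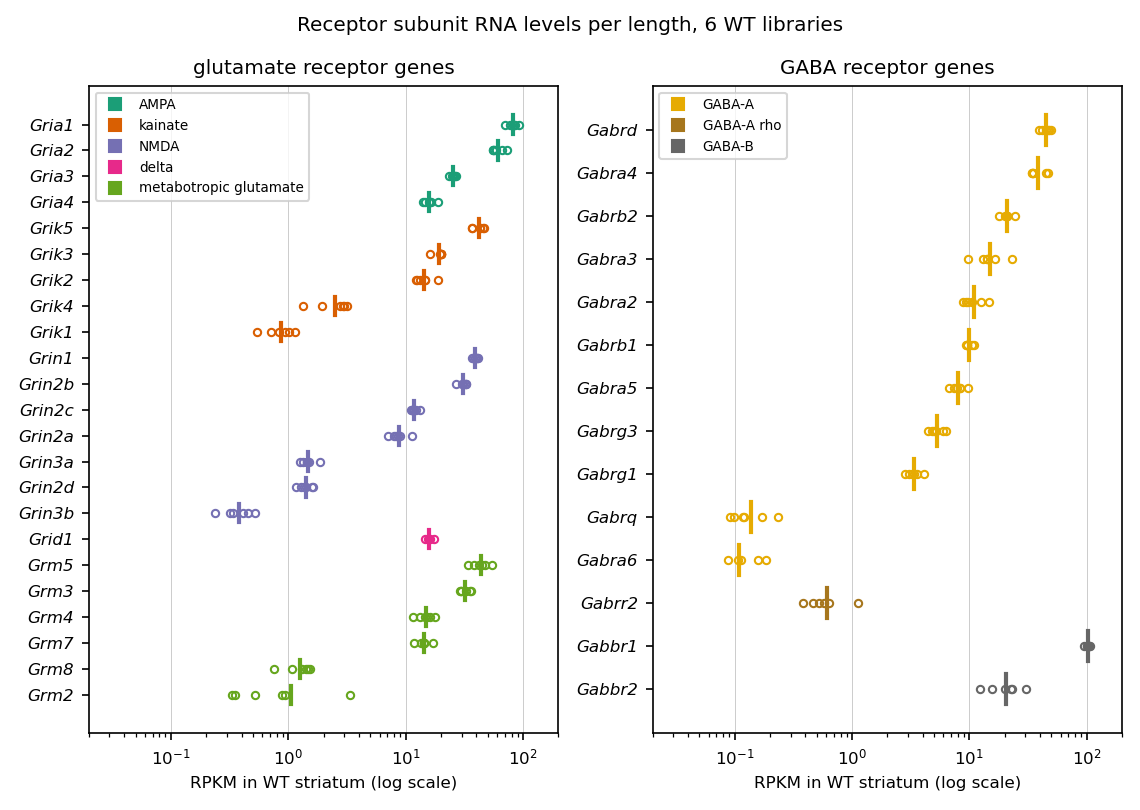
RNA level per length (RPKM, log axis) of 23 glutamate and 14 GABA receptor members in WT striatum; open circles are the 6 libraries and bars their mean, coloured by receptor family. Gabbr1 stands highest at 102 RPKM and Gabra6 lowest at 0.109 RPKM; 1 WT library with no Gabra6 read cannot be drawn on the log axis.

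Of the 11 members called in a Q175 comparison, 10 are described next, and the promoters of those with an entry are shown first so that the sequences can be set beside the values. The RefSeq promoter table (GRCm38.p6) holds 250 bases before and 50 after the start of 27 of the 42 members by symbol. Among called members it has Grik2 (chr10:49788705-49789004, minus strand), Grm3 (chr5:9725303-9725602, minus strand), Grin2c (chr11:115267194-115267493, minus strand) and Gabbr1 (chr17:37045716-37046015, plus strand). Capitals mark the GC box GGGCGG, or its reverse complement CCGCCC, searched on both strands, and adjoining matches run together. Grin2b, Gabrd, Grm4, Grm5, Grid1 and Gria3 are not in the table.
Grik2: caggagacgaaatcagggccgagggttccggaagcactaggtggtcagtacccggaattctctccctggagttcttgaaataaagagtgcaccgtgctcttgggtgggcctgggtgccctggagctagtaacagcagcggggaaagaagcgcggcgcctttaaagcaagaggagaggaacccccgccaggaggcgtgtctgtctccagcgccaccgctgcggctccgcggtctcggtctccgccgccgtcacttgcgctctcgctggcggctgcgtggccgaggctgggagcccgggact
Grm3: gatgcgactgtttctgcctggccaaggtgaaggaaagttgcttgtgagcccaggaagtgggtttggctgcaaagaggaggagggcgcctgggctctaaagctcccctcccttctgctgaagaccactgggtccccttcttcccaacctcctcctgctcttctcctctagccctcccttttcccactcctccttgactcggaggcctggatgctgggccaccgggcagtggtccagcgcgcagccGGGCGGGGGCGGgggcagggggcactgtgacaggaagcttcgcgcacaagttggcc
Grin2c: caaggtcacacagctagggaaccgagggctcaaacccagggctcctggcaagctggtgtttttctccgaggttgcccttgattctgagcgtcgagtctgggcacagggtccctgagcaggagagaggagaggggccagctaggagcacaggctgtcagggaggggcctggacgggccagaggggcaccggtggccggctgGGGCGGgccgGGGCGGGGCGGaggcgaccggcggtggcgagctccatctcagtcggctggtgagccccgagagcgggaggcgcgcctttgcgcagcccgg
Gabbr1: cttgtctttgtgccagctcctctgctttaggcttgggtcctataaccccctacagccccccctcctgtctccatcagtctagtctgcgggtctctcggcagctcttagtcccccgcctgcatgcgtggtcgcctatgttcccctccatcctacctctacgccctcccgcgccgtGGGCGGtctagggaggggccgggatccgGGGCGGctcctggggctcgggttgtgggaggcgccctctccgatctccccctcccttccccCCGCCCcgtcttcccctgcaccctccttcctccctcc
The GC box occurs in 35.7% of all 32851 promoters of that length and in 16 of the 27 member promoters. Grm3 has 2 matches, Grin2c and Gabbr1 have 3 each, and Grik2 has 0 in this window. The cyclic AMP response element TGACGTCA is in 1.79% of all promoters and in 0 of the 27. The letters TATAAA are in 13.6% of all promoters and in 3 of the 27, and in none of these 4. GC content was 64.7% for Grik2, 63.7% for Grm3 and 67.3% for Gabbr1, against a median of 52.7% over all promoters.

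With Tyrobp intact, 8 of 25 glutamate receptor members fell in Q175 striatum and 0 rose. Grik2 fell by 33.7%, and Grm4, Grm5, Grin2b, Grm3, Grid1 and Grin2c were among the others. Over all 19667 genes tested, 9.63% were called in this comparison, 5.47% lower and 4.15% higher, by edgeR's quasi-likelihood test at a Benjamini-Hochberg adjusted p under 0.05. DESeq2 called 9 of the 25, with 11.1% of all genes called, and limma-voom 8, with 9.64%. The median log2 fold change of the 25 members was -0.17 and that of all genes was 0.0073. For 6 of the 25 the Q175 and WT libraries did not overlap, all with Q175 lower, against 2.39% of all genes. Without WT replicate 4 the count was 5, the lowest of 24 fits that each left out 1 library. Without Q175 replicates 2 and 3 together it was 6, with Grin2b (adjusted p = 0.0918) and Grin2c (adjusted p = 0.0667) not called.

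Among kainate subunits the change was in Grik2 (chromosome 10, 49094833 to 49788766), which encodes a pore-forming subunit that takes part in most native kainate receptors. Grik2 had a lowest, median and highest value of 162, 185 and 249 CPM in WT and 113, 127 and 140 CPM in Q175. Every Q175 library lay below every WT library. The log2 fold change was -0.59 ± 0.10 (SE, n = 6 per group, adjusted p = 0.000468). The other 4 kainate members were not called, with log2 fold changes from -0.10 for Grik5 to 0.16 for Grik4.

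Among metabotropic receptors, Grm3, Grm4 and Grm5 fell. Grm3 (chromosome 5, 9485541 to 9725170), a Gi-coupled receptor found in astrocytes as well as neurons, was at 88.9, 95.3 and 111 CPM in WT and 68.9, 76.6 and 87.5 CPM in Q175, with no overlap. Its log2 fold change was -0.36 ± 0.07 (adjusted p = 0.000579). Grm4 (chromosome 17, 27422387 to 27521403), a presynaptic Gi-coupled receptor, was at 69.2, 89.1 and 107 CPM in WT and 58.9, 64.6 and 68.2 CPM in Q175, again without overlap. It fell by 0.47 on the log2 scale (SE 0.12, adjusted p = 0.0157).

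Grm5 (chromosome 7, 87584168 to 88134907), the main Gq-coupled metabotropic receptor of striatal projection neurons, was at 345, 447 and 560 CPM in WT and 293, 342 and 351 CPM in Q175. The ranges touched, since the highest Q175 library exceeded the lowest WT library. The log2 fold change was -0.42 ± 0.11 (adjusted p = 0.0193), and leaving out 1 library at a time gave adjusted p of 0.00492 to 0.0708, exceeding 0.05 without WT replicate 1, 3 or 4. By edgeR with no filter on low counts Grm5 was not called either (adjusted p = 0.0509). Grm4 exceeded 0.05 without WT replicate 4 (adjusted p = 0.0548). Grm7, Grm8 and Grm2 were not called, with log2 fold changes of -0.17, 0.16 and -0.58.

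Of the NMDA receptor subunits, Grin2b and Grin2c fell. Grin2b (chromosome 6, 135713233 to 136173511) encodes a glutamate-binding subunit that slows the decay of NMDA current. It was at 670, 777 and 813 CPM in WT and 501, 593 and 734 CPM in Q175, and the groups overlapped. The log2 fold change was -0.36 ± 0.10 (adjusted p = 0.0173). Grin2c (chromosome 11, 115249169 to 115267243), a glutamate-binding subunit that outside the cerebellum is found in part in astrocytes, was at 56.0, 58.3 and 66.5 CPM in WT and 43.1, 51.3 and 54.0 CPM in Q175, without overlap. Its log2 fold change was -0.25 ± 0.08 (adjusted p = 0.0405), and it lost its call in 12 of 24 fits that each left out 1 library (adjusted p from 0.0300 to 0.121). Grin1 had a log2 fold change of -0.16 ± 0.06 that was not called (adjusted p = 0.0901).

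Grid1 (chromosome 14, 34820108 to 35583379), a delta receptor that organises synapses by binding cerebellins rather than by carrying glutamate current, was at 86.5, 94.5 and 104 CPM in WT and 71.0, 78.6 and 82.8 CPM in Q175. All 6 Q175 libraries were below all 6 WT libraries, with a log2 fold change of -0.28 ± 0.06 (adjusted p = 0.00347). By edgeR none of the 4 AMPA subunits was called in Q175 against WT. Gria3, which DESeq2 (adjusted p = 0.0494) and edgeR with no filter (adjusted p = 0.0472) called lower, was at -0.21 ± 0.07 (adjusted p = 0.0691), with 231, 252 and 265 CPM in WT and 182.02, 210 and 259 CPM in Q175. Gria1 was at -0.0030 ± 0.069 and Gria2 at -0.16 ± 0.07.

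Without Tyrobp, 3 of 25 glutamate receptor members fell in Q175_TyrobpKO against TyrobpKO and 0 rose. They were Grik2, Grm3 and Gria3. In this comparison 5.86% of all genes were called, 3.08% lower and 2.78% higher. DESeq2 called 4 of the 25, with 8.16% of all genes called, and limma-voom 3, with 6.15%. The median log2 fold change of the 25 was -0.10, against -0.0019 over all genes. Grik2 was at 136, 153 and 199 CPM in TyrobpKO and 94.9, 110 and 123 CPM in Q175_TyrobpKO, a log2 fold change of -0.55 ± 0.10 (adjusted p = 0.00188). Grm3 was at 88.2, 97.5 and 105 CPM in TyrobpKO and 67.9, 73.5 and 82.4 CPM in Q175_TyrobpKO, a log2 fold change of -0.39 ± 0.07 (adjusted p = 0.000390). Neither gene's groups overlapped. Gria3 (chromosome X, 41400854 to 41678601), an AMPA subunit that usually pairs with Gria2, was at 236, 262 and 273 CPM in TyrobpKO and 194, 223 and 236 CPM in Q175_TyrobpKO. Its groups came within rounding of each other without crossing, and its log2 fold change was -0.24 ± 0.07 (adjusted p = 0.0460). Gria3 lost its call in 17 of 24 fits that left out 1 library (adjusted p from 0.0261 to 0.124).

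Grin2c was next in this comparison and was not called by edgeR, at -0.25 ± 0.08 (adjusted p = 0.0599), while DESeq2 called it lower (adjusted p = 0.0426). Grm4 was at -0.33 ± 0.12, Grm5 at -0.20 ± 0.11, Grin2b at -0.15 ± 0.10 and Grid1 at -0.09 ± 0.06, none of them called. Whether the Q175 effect itself depended on Tyrobp genotype was tested by the interaction, in which edgeR called 0 of 42 members and 0% of all genes. The interaction was 0.19 ± 0.09 on the log2 scale for Grid1 (unadjusted p = 0.0424) and 0.15 ± 0.07 for Gabbr1 (unadjusted p = 0.0484), the 2 members under an unadjusted 0.05, and the smallest adjusted p of a member was 0.999. DESeq2 and limma-voom also called 0 members, with 0.00801% and 0.00508% of all genes called. A call in 1 Q175 comparison and not in the other is therefore not shown to be a difference between them.

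**Figure D2:**
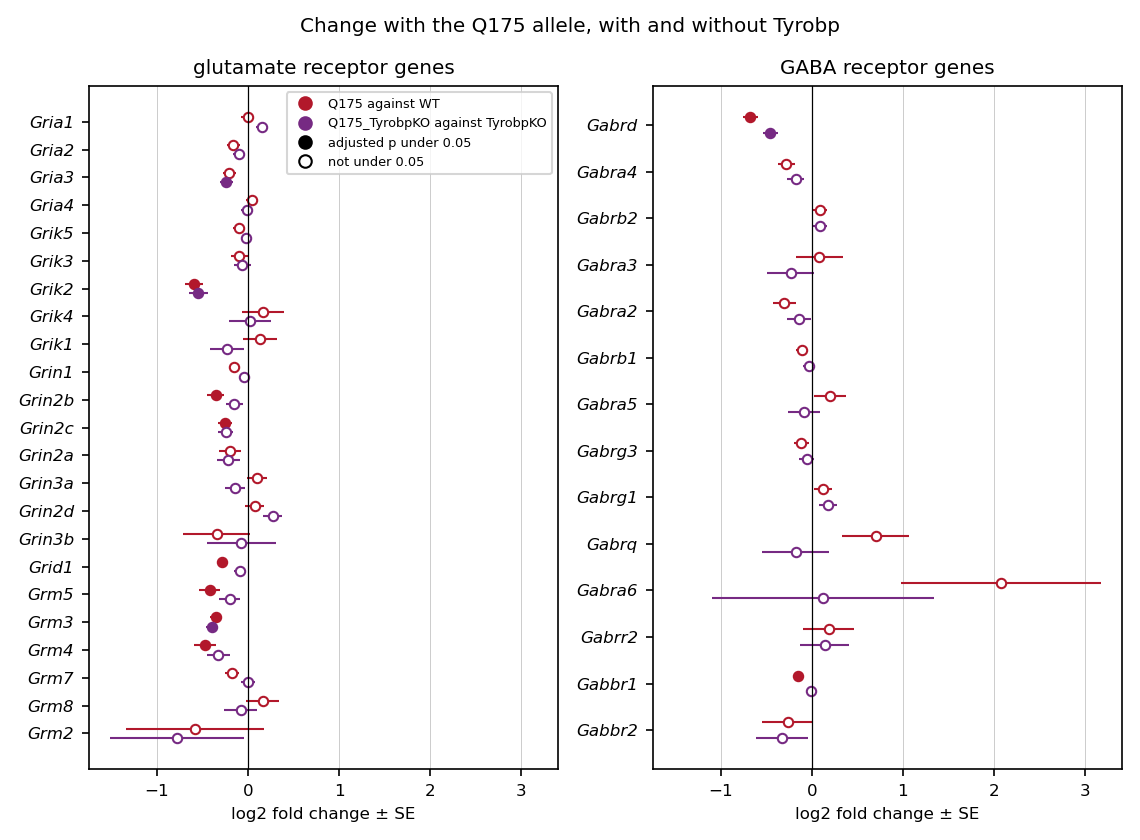
Log2 fold change ± SE of 23 glutamate and 14 GABA receptor members in Q175 against WT (red) and Q175_TyrobpKO against TyrobpKO (purple), glutamate receptors left and GABA receptors right, with filled symbols at an adjusted p under 0.05. All filled symbols lie below 0, and Grik2, Grm3 and Gabrd are filled in both comparisons.

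Of the 17 GABA receptor members, 2 fell in Q175 against WT and 0 rose, beside the 5.47% of all genes called lower. The median log2 fold change of the 17 was 0.02. Gabrd (chromosome 4, 155384980 to 155398112) had the smallest adjusted p of the 42 members in this comparison. It encodes the delta subunit, which with Gabra4 forms extrasynaptic receptors that carry tonic current. Gabrd was at 114, 131 and 142 CPM in WT and 62.8, 82.7 and 96.0 CPM in Q175, so that every Q175 library lay below every WT library. The log2 fold change was -0.68 ± 0.08 (adjusted p = 3.47e-06), so that its level fell by 37.4%. Gabbr1 (chromosome 17, 37045966 to 37075067) was at 732, 793 and 830 CPM in WT and 677, 708 and 744 CPM in Q175, with overlap. Its log2 fold change was -0.15 ± 0.05 (adjusted p = 0.0482), and it kept the call in 4 of 24 fits that left out 1 library (adjusted p from 0.0320 to 0.147). The calls lost included those without each WT library other than replicate 5 and without Q175 replicates 1, 3, 5 or 6. Without Q175 replicates 2 and 3 together it was not called either (adjusted p = 0.0867), and Gabrd was.

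Gabra4 and Gabra2 came next and were not called by edgeR, while DESeq2 called Gabra4 lower (adjusted p = 0.0407). Gabra4, the alpha partner of Gabrd in the striatum, was at 206, 213 and 287 CPM in WT and 169, 192 and 221 CPM in Q175, a log2 fold change of -0.28 ± 0.10 (adjusted p = 0.0630). Gabra2, an alpha subunit of synaptic receptors, was at 67.8, 77.7 and 113 CPM in WT and 61.3, 68.1 and 75.8 CPM in Q175, a log2 fold change of -0.30 ± 0.13 (adjusted p = 0.151). The WT and Q175 ranges of both genes overlapped. Gabrb2, a beta subunit, had a log2 fold change of 0.09 ± 0.08 (adjusted p = 0.583).

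In Q175_TyrobpKO against TyrobpKO, 1 of 17 GABA receptor members was called, a share of 5.88% beside 5.86% of all genes. Gabrd was at 98.3, 110 and 130 CPM in TyrobpKO and 71.6, 81.8 and 90.4 CPM in Q175_TyrobpKO, with no overlap, and its log2 fold change was -0.46 ± 0.08 (adjusted p = 0.00104). Between Q175_TyrobpKO and Q175 the log2 difference of Gabrd was 0.02 ± 0.08. Gabra4 at -0.18 ± 0.10 (adjusted p = 0.333) and Gabrg1 at 0.18 ± 0.10 (adjusted p = 0.361) were the nearest uncalled members. Together the 4 members called in this comparison, 3 glutamate and 1 GABA, were also those whose groups did not overlap, where 2.27% of all genes had non-overlapping groups with Q175_TyrobpKO lower.

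**Figure D3:**
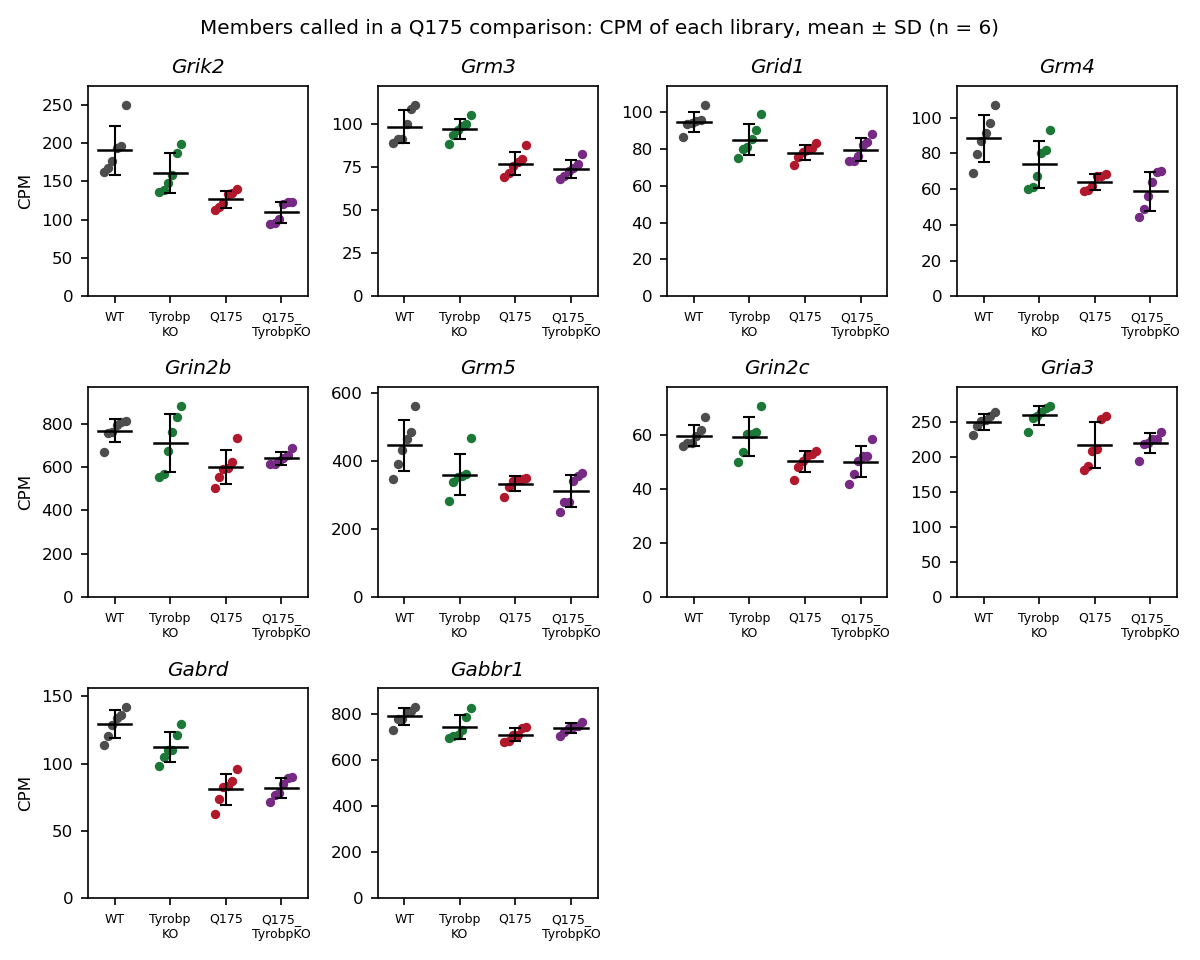
CPM of each of the 24 libraries (points, linear axis from 0) for 10 of the 11 members called in a Q175 comparison, by genotype, with mean ± SD (n = 6). Grik2, Grm3 and Gabrd separate both Q175 genotypes from their controls, whereas Grin2b, Grm5 and Gabbr1 overlap.

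Markers of striatal projection neurons moved with these genes. Of 10 such markers, 9 fell in Q175 (WT as control) and 5 in Q175_TyrobpKO (TyrobpKO as control). Their summed level ran from 5652 to 9072 CPM in WT and from 3877 to 5371 CPM in Q175, and from 5223 to 8588 CPM in TyrobpKO and 3323 to 5491 CPM in Q175_TyrobpKO. The median log2 fold change of the 10 markers was -0.75 and -0.49 in the 2 comparisons. All 10 had reads in every genotype. In bulk tissue fewer cells of a type and less RNA per cell cannot be told apart, and the part of either in the receptor changes was not tested. Beside Grm3 and Grin2c, which astrocytes also express, the summed level of 10 astrocyte markers was 4017 to 4494 CPM in WT and 3320 to 4018 CPM in Q175, with 2 of 10 called higher and 1 called lower. In TyrobpKO it was 4236 to 4522 CPM and in Q175_TyrobpKO 3379 to 3824 CPM, without overlap, with 0 of 10 called higher and 2 called lower. Its part in these changes was not tested. Striatal interneuron markers gave 0 calls of 10 in either comparison. Choroid plexus markers gave 4 of 10 higher in Q175 against WT and 0 calls in Q175_TyrobpKO against TyrobpKO. Mature oligodendrocyte markers gave 0 calls and 2 of 10 lower in the same order. Their part in the receptor changes was not tested.

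Cortical marker levels differed between libraries, and the levels of many receptor genes moved with them. The summed level of 10 cortical excitatory neuron markers ran from 162 to 832 CPM in WT, 521 to 1070 in TyrobpKO, 140 to 882 in Q175 and 135 to 998 in Q175_TyrobpKO. None of the 10 was called in any comparison of genotypes. In a fit that added this sum as a term, chosen after seeing the data, 23 of 42 members were called for the term itself, with 17% of all genes called, 10.1% rising and 6.87% falling with the sum. Of the 25 glutamate members 7 rose with the cortical sum and 7 fell, and of the 17 GABA members 5 rose and 4 fell. The coefficients are log2 changes per doubling of the cortical sum within genotype.

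Grm2, a Gi-coupled autoreceptor of cortical axon terminals, had the steepest increase at 1.35 ± 0.14 (adjusted p = 3.47e-07). Its level ran from 0.832 CPM in Q175 replicate 3, with a cortical sum of 140 CPM, to 19.3 CPM in TyrobpKO replicate 2, with a cortical sum of 1070 CPM. Gabbr2 had 0.52 ± 0.03 (adjusted p = 4.22e-15), from 71.6 to 229 CPM in the same 2 libraries, while its partner Gabbr1 had -0.02 ± 0.02. The alpha subunits Gabra3 and Gabra5 had 0.46 and 0.30. Among kainate genes Grik4 had 0.43, Grik1 0.24 and Grik3 0.17. Grin2a, an NMDA subunit of mature synapses, had 0.19 and Grm8, a presynaptic Gi-coupled receptor, 0.28. In the other direction Gabrq had -0.45, Grm4 -0.19, Gabra2 -0.18, Grm5 -0.17, Grik2 -0.16, Gria1 -0.10 and Gabrd -0.09. Gabrq was at only 0.428 to 2.995 CPM, and its highest value was in Q175 replicate 3, where the cortical sum was 140 CPM. All 10 projection neuron markers fell with the cortical sum.

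With the cortical term in the fit, Q175 against WT gave 11 called glutamate members, 10 lower and 1 higher, and 5 GABA members, 4 lower and 1 higher, with 13.9% of all genes called and 7.63% called lower. All 10 members called without the term were called with it. Grm7 (-0.21 ± 0.06), Gria3 (-0.19 ± 0.06), Gabra4 (-0.30 ± 0.08) and Gabra2 (-0.34 ± 0.09) were added as lower. Grik4 (0.31 ± 0.08) and Gabra5 (0.28 ± 0.08) were added as higher. Grm5 had an adjusted p of 3.41e-05 in that fit, against 0.0193 without the term. In Q175_TyrobpKO against TyrobpKO the fit gave 7 glutamate members, 6 lower and 1 higher, and 1 GABA member, with 8.83% of all genes called and 4.86% called lower. Grm4, Grm5 and Grin2c were among those that joined Grik2 and Grm3 as lower, Grik4 was higher, and Gria3 was no longer called (adjusted p = 0.0571).

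**Figure D4:**
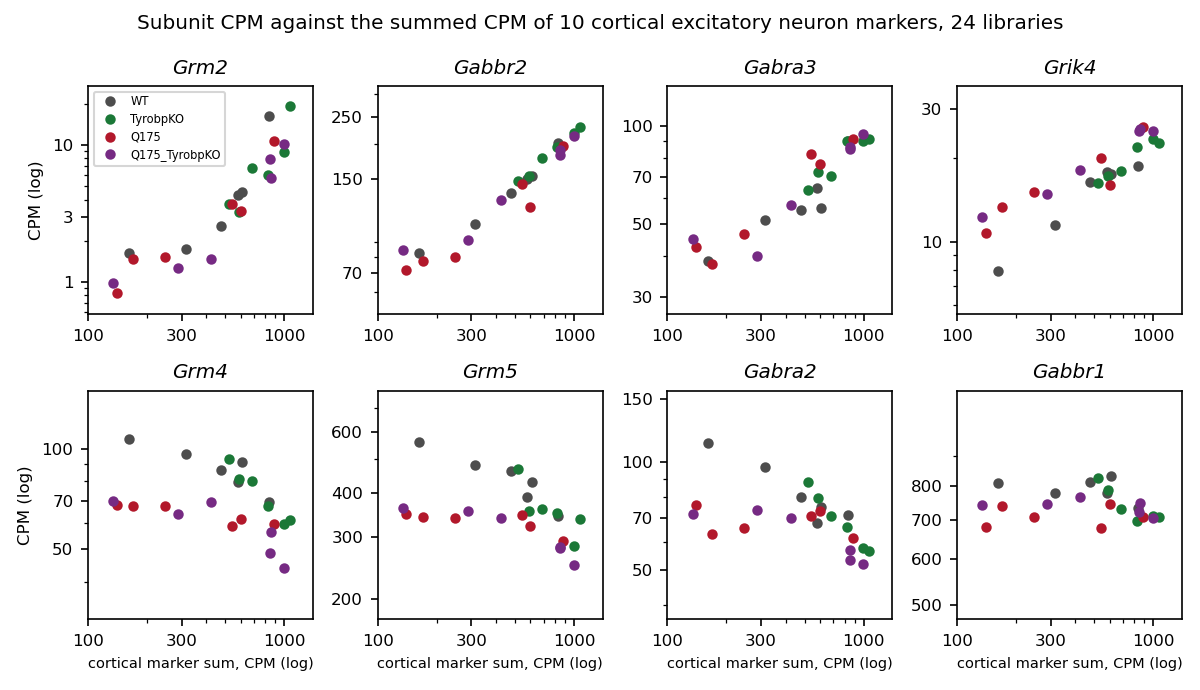
CPM of 8 members (log axis) against the summed CPM of 10 cortical excitatory neuron markers (log axis) in the 24 libraries, coloured by genotype. Grm2, Gabbr2, Gabra3 and Grik4 increase with the cortical sum, Grm4, Grm5 and Gabra2 decrease, and Gabbr1 has a coefficient of -0.02.

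Deletion of Tyrobp gave no called receptor gene. In TyrobpKO against WT edgeR called 0 of 42 members, with 0.117% of all genes called, and 10 members had an unadjusted p under 0.05. The share of all genes under that unadjusted threshold is not given here, so the count of 10 does not set the members apart. DESeq2 and limma-voom called 0 as well, with 0.081% and 0.117% of all genes called. Grik1, a pore-forming kainate subunit, was at 3.62, 5.97 and 7.73 CPM in WT and 5.92, 8.12 and 10.7 CPM in TyrobpKO, with overlap and a log2 fold change of 0.51 ± 0.18 (adjusted p = 0.749). Gabrd was at -0.20 ± 0.08 and Gabra2 at -0.28 ± 0.13, both with an adjusted p of 0.749. The cortical sum was higher in TyrobpKO than in WT by its medians, 754 against 528 CPM, and Grik1 rose and Gabrd and Gabra2 fell with that sum, as given above. With the cortical term in the fit the differences were 0.34 ± 0.15 for Grik1, -0.13 ± 0.07 for Gabrd and -0.13 ± 0.09 for Gabra2.

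In Q175_TyrobpKO against Q175 edgeR called 0 of 42 members, with 0.158% of all genes called, and 2 members had an unadjusted p under 0.05. Here too the share of all genes under the unadjusted threshold is not given. DESeq2 and limma-voom also called 0, with 0.147% and 0.173% of all genes called. The 2 under an unadjusted 0.05 were Grik5 at 0.15 ± 0.06 and Grin1 at 0.13 ± 0.06, both with an adjusted p of 0.818. Gabra6, the alpha subunit of cerebellar granule cells, had a log2 fold change of -2.13 ± 1.17 (adjusted p = 0.843), and Gabrq one of -0.60 ± 0.36 (adjusted p = 0.846). Both rested on 1 library. Gabra6 was at 6.89 CPM in Q175 replicate 2, which also had the Cbln3 level given above, and at most 0.479 CPM in the other Q175 libraries. Gabrq, the theta subunit, was at 2.995 CPM in Q175 replicate 3, the library with the Ttr level given above, and at most 1.08 CPM in the others. Without Q175 replicates 2 and 3, Gabra6 had a log2 fold change of 0.66 and Gabrq one of -0.07. Without Q175 replicate 3 alone Gabrq had -0.14.

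On chromosome 7, 6 members share their chromosome with Tyrobp (30413760 to 30417585). Grik5 was nearest, 5.34 Mb away, followed by Grin2d at 15.4 Mb and Gabrg3 at 26.3 Mb. Grik5 was at 0.07 and Grin2d at -0.0045 in TyrobpKO against WT on the log2 scale, and neither was called.

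No member differed between the sexes by edgeR, DESeq2 or limma-voom, with 0.0814%, 0.0836% and 0.0763% of all genes called by these tools and 0 of 42 members under an unadjusted p of 0.05. The Q175 effect in females minus that in males was likewise called for 0 of 42 members and 0% of all genes, with 0 members under an unadjusted 0.05, and DESeq2 and limma-voom called 0 members and 0% of genes too. For Grik2 the female minus male difference over all genotypes was 0.10 ± 0.07.

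For 2 of 4 pairs of subunits tested, ratios of genes that can take the same place in a receptor were taken within libraries, each as the log2 of a CPM ratio, and compared by 2-sided exact permutation tests over all splits of 12 libraries into 6 and 6, with adjustment over the 8 tests of all 4 pairs. Gria1 over Gria2, which bears on how many AMPA channels could lack the calcium-blocking subunit, had a log2 ratio of -1.07 ± 0.09 (SD, n = 6) in TyrobpKO and -0.82 ± 0.10 in Q175_TyrobpKO. The 2 groups did not overlap, with TyrobpKO at most -0.97 and Q175_TyrobpKO at least -0.96. The difference was 0.25 (exact permutation p = 0.00216, adjusted p = 0.0173). As a difference in medians it was 0.23 and did not pass the threshold (adjusted p = 0.104). In Q175 against WT the same ratio was -0.78 ± 0.15 against -0.94 ± 0.10, a difference of 0.16 (exact permutation p = 0.0628, adjusted p = 0.126). Without Q175 replicates 2 and 3 it was 0.10 (exact permutation p = 0.219, adjusted p = 0.292). Neither Gria1 nor Gria2 was called alone in either comparison. Grin2a over Grin2b differed by 0.16 in Q175 against WT (exact permutation p = 0.201, adjusted p = 0.268) and by -0.09 in Q175_TyrobpKO against TyrobpKO (exact permutation p = 0.504, adjusted p = 0.576), neither past the threshold.

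Most GABA-A genes lie in clusters, and the cluster on chromosome 5 (70751047 to 72149037) held values of both signs. In Q175 against WT, Gabrg1, Gabra2, Gabra4 and Gabrb1 had log2 fold changes of 0.12, -0.30, -0.28 and -0.11 there, and edgeR called none. Gabrd, on chromosome 4, lies outside the clusters.

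Genes that supply, anchor or modify these receptors were taken from 6 lists of 84 genes in all, and every one was tested. In Q175 against WT 19 fell and 1 rose, beside 5.47% of all genes called lower and 4.15% higher. Without Q175 replicates 2 and 3 these counts were 14 and 1. In Q175_TyrobpKO against TyrobpKO 10 fell and 3 rose, beside 3.08% and 2.78% of all genes. For TyrobpKO against WT, for Q175_TyrobpKO against Q175 and for the interaction, 0 of 84 were called by edgeR. Of 54 genes on the 3 glutamate lists 17 fell in Q175 against WT, and of 30 genes on the 3 GABA lists 2 fell and 1 rose. The difference between these shares was not tested.

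Among auxiliary subunits and clustering proteins of AMPA and kainate receptors, 6 of 19 fell in Q175 against WT (Cacng2, Cacng3, Cacng4, Gsg1l, Neto2 and Shisa9). Neto2, an auxiliary subunit of kainate receptors, was at 197, 215 and 323 CPM in WT and 102, 118 and 137 CPM in Q175, without overlap. Its log2 fold change was -0.99 ± 0.11 (adjusted p = 1.69e-06), and in Q175_TyrobpKO against TyrobpKO it was -0.83 ± 0.11 (adjusted p = 3.69e-05). Gsg1l, an auxiliary subunit that dampens AMPA current, was at 122, 156 and 169 CPM in WT and 78.0, 95.2 and 101 CPM in Q175, a log2 fold change of -0.73 ± 0.09 (adjusted p = 2.49e-06). In the Tyrobp-deleted pair Gsg1l had -0.54 ± 0.09 (adjusted p = 0.000238). In that pair Cacng2, Cacng3, Gsg1l and Neto2 fell and Cpt1c, an AMPA receptor partner, rose.

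Of 24 scaffold and kinase genes of the glutamate synapse, 9 fell with Tyrobp intact, and without Tyrobp 3 fell (Camk2a, Homer1 and Shank3). Shank3, a postsynaptic scaffold, was at 388, 484 and 538 CPM in WT and 259, 311 and 345 CPM in Q175, with a log2 fold change of -0.61 ± 0.09 (adjusted p = 3.23e-05). Homer1, which ties Grm5 to Shank proteins, was at 271, 373 and 461 CPM in WT and 191, 235 and 272 CPM in Q175. The ranges of Homer1 touched at their ends, and its log2 fold change was -0.70 ± 0.10 (adjusted p = 5.47e-05). Without Tyrobp the log2 fold changes were -0.39 ± 0.09 for Shank3 (adjusted p = 0.00742) and -0.62 ± 0.10 for Homer1 (adjusted p = 0.000474).

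Of 11 genes of glutamate release and uptake, 2 fell with Tyrobp intact and 3 without it, all of them clearance genes of astrocytes. Slc1a2, the main glutamate uptake carrier, was at 2890, 3061 and 3257 CPM in WT and 2068, 2421 and 2666 CPM in Q175, a log2 fold change of -0.37 ± 0.06 (adjusted p = 0.000162). Glul, glutamine synthetase, had -0.41 ± 0.07 (adjusted p = 0.000177). In Q175_TyrobpKO against TyrobpKO they had -0.37 ± 0.06 and -0.40 ± 0.07, and Slc1a3 was also called lower. Slc1a2 is also 1 of the 10 astrocyte markers and makes up most of their sum.

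Of 8 genes of GABA synthesis, release and uptake, 0 were called in either Q175 comparison, where 9.63% and 5.86% of all genes were called. Slc6a12, a GABA and betaine carrier, had a log2 fold change of -0.56 ± 0.48 in Q175 against WT (adjusted p = 0.551), and -1.60 without Q175 replicates 2 and 3 (adjusted p = 0.0860). It rests on few reads, at 0.113 to 0.889 CPM in WT and 0.104 to 0.849 CPM in Q175. In Q175_TyrobpKO against TyrobpKO its log2 fold change had the other sign, 0.97 ± 0.49 (adjusted p = 0.293). Of 15 genes of GABA-A anchoring, trafficking and chloride transport, Rdx rose and Shisa7 fell in Q175 against WT. Without Tyrobp, Rdx and Nlgn2, an adhesion protein of inhibitory synapses, rose and 0 fell. There Rdx lost its call without TyrobpKO replicate 2 (adjusted p = 0.0559) or Q175_TyrobpKO replicate 6 (adjusted p = 0.0666). Rdx, which anchors alpha 5 receptors outside synapses, had 101, 108 and 121 CPM in WT and 123, 143 and 148 CPM in Q175, a log2 fold change of 0.35 ± 0.06 (adjusted p = 0.000122). Shisa7, an auxiliary subunit of GABA-A receptors, had -0.28 ± 0.08 (adjusted p = 0.0236). Of 7 GABA-B partners 1 fell, Kctd16, an auxiliary subunit of the receptor, at -0.50 ± 0.10 (adjusted p = 0.00118). Kcnj6, a potassium channel subunit opened by GABA-B receptors, had -0.60 ± 0.64, or -0.11 without Q175 replicates 2 and 3, and a coefficient of 1.26 per doubling of the cortical sum.

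**Figure D5:**
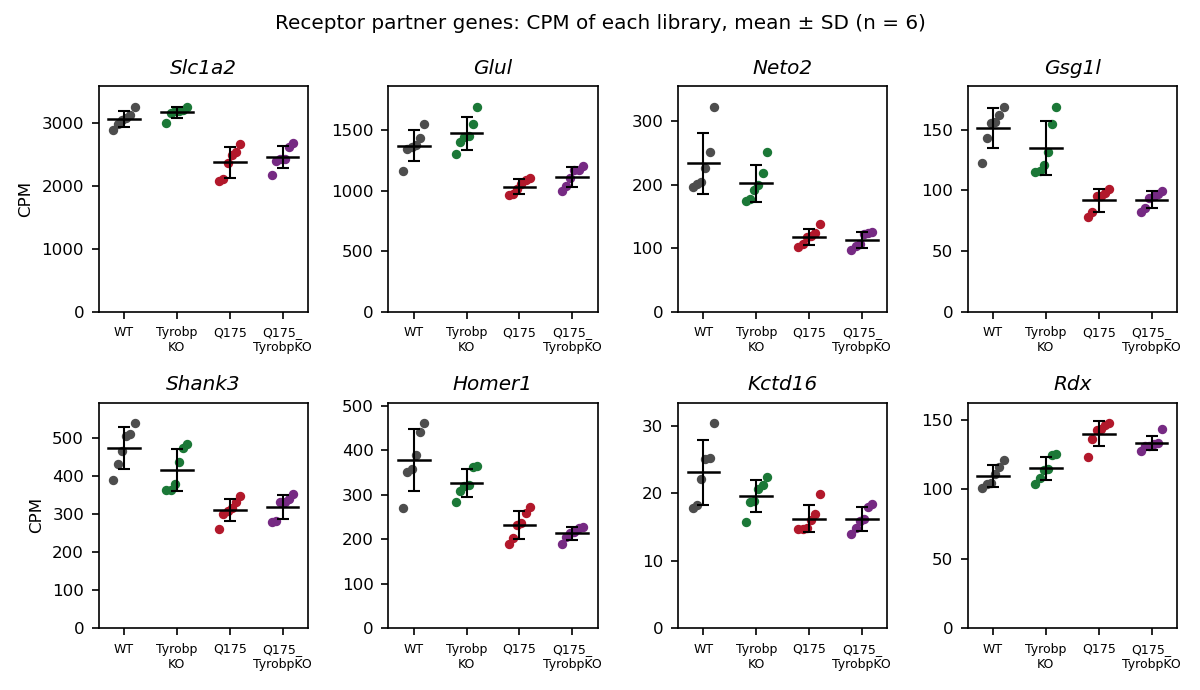
CPM of each library (points, linear axis from 0) for 8 genes that supply or anchor the receptors, by genotype, with mean ± SD (n = 6). Neto2, Gsg1l, Shank3, Homer1, Slc1a2, Glul and Kctd16 have lower means in both Q175 genotypes than in their controls, and Rdx has higher means. Kctd16 was called in Q175 against WT only.

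Some values carry a counting limit, because the use of strand is not given. Exons shared with another gene made up 32.1% of the model length of Grin3b, which overlaps Tmem259, and 13.5% of that of Grin1, which overlaps the antisense gene Grin1os. The share was 9.66% for Grin2d, 9.60% for Grm2 and 4.98% for Gabra5. For each of the 11 called members it was under 2%.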

How the data were processed

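RNA of 24 libraries of mouse striatum was sequenced on a NovaSeq by a commercial provider after extraction with Trizol, per the labels' protocols. The authors deposited raw read counts per gene, which had not been normalized. The submitters' processing notes name STAR, featureCounts and DESeq2 without versions, and the build GRCh38, which is a human build name. The coordinates in the deposited table are those of the mouse build GRCm38: all 42 members have the same start and end in GENCODE M21. Whether counting used strand is not given in the sources used here. Gene lengths in the deposited table equal the merged exon lengths and served only for RPKM.

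Counts were tested with edgeR 4.0.16 in R 4.3.3 by a quasi-likelihood fit with TMM scaling, the filterByExpr filter (19667 genes left), genotype means and sex as terms over all 24 libraries. P-values were adjusted over all genes tested, and the fit was tested on simulated data. SEs come from the F statistic, and TMM scaling was used for CPM. Alternatives were DESeq2 1.42.0, limma-voom 3.58.1, another scaling, no filter, each sex alone, no sex term and libraries left out. The cortical term and the joint removal of Q175 replicates 2 and 3 were added after seeing the data. Named were members called in a comparison of genotypes, the 2 members per class with the smallest p otherwise, and the 2 genes per partner list with the smallest p in Q175 against WT. Other members and partners are named for their level, their coefficient or their place in a family, after their values were seen. The members and lists were chosen with earlier results of these data known. The 60 pairs of libraries of 1 genotype all differed beyond sampling noise. Replicates are separate animals by their labels. Some members, partners and ratios count in the totals and adjustments but are not reported here.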

Additional observations from a re-analysis of the deposited data

Results flagged for a closer look

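Of the members, 37 were screened in each genotype for a library that stands apart from the other 5, by a gap to its neighbour that exceeded Dixon's critical share of the whole range. Of 148 groups screened 9 had such a library, where chance gives about 1 in 20.

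Of these values, 3 belonged to Grm2. It was at 16.37 CPM in WT replicate 5, against 1.62 to 4.55 CPM in the other WT libraries, at 19.26 CPM in TyrobpKO replicate 2, against 3.27 to 8.93 CPM, and at 10.65 CPM in Q175 replicate 1, against 0.832 to 3.72 CPM. Each of these libraries had the highest cortical marker sum of its genotype. In WT replicate 4, which had the lowest cortical sum of its genotype, Grik3 was at 144.7 CPM against 174.9 to 181 CPM.

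Gabra6 was at 6.895 CPM in Q175 replicate 2, where 195 of its reads fell, against 0 to 0.479 CPM in the other Q175 libraries. Gabrq was at 2.995 CPM in Q175 replicate 3, against 0.662 to 1.08 CPM. The remaining values were Gabrr2 at 2.373 CPM in WT replicate 3, against 0.800 to 1.33 CPM, Grin3a at 13.76 CPM in Q175_TyrobpKO replicate 3, against 19.1 to 20.98 CPM, and Grik5 at 211.5 CPM in TyrobpKO replicate 3, against 226 to 234 CPM.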

How the results depend on the processing

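In Q175 against WT, 8 glutamate receptor members were called; leaving out 1 library gave 5 to 10, males alone 5 and females alone 0, with 3 libraries a group. The 2 GABA receptor members became 1 to 3 with 1 library left out and 1 with no filter, in males alone, in females alone, with only the libraries compared, or without Q175 replicates 2 and 3. With the cortical term they were 5. In Q175_TyrobpKO against TyrobpKO the 3 glutamate members became 1 in males alone, 1 in females alone and 7 with the cortical term, and the 1 GABA member became 0 in males alone. As a difference in medians, Gria1 over Gria2 in Q175_TyrobpKO against TyrobpKO was 0.23 and not past the threshold. In Q175_TyrobpKO against Q175, Gabra6 was at 0.82 in females alone, 0.66 without Q175 replicates 2 and 3 and 0.18 without Q175 replicate 2, and Gabrq at 0.074 in females alone, against -2.13 and -0.60. Gabra6 ran from -2.60 to 0.18 with 1 library left out. Of the partner genes, 1 rose in Q175 against WT, and 2 rose by DESeq2, by limma-voom or without a sex term, 0 in males alone, 6 with the cortical term and 1 to 3 with 1 library left out. The 19 that fell became 3 in females alone. In Q175_TyrobpKO against TyrobpKO the 10 that fell became 2 in males alone and 6 in females alone. The 3 that rose became 0 in males alone, 0 in females alone, 6 with the cortical term and 1 to 3 with 1 library left out, with 1 without TyrobpKO replicate 2. Shisa7 was at 0.034 there in males alone. The causes of these changes were not tested, and in 1 sex alone fewer libraries and sex cannot be told apart. DESeq2 called 9 glutamate and 3 GABA members in Q175 against WT and 4 and 1 in the other pair, and limma-voom the same counts as edgeR.

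No paired analysis was possible because the labels give no replicate numbers shared between genotypes. Members under 2 CPM, such as Gabra6, Gabrq, Gabrr2 and Grin3b, rest on few reads per library, which limits what their tests can detect.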
